A study of Rattus norvegicus with 2 samples.

Results

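The insulin-like growth factor (IGF) system was examined in cultured rat astrocytes through 10 genes, the ligands Igf1 and Igf2, the receptors Igf1r and Igf2r, and the binding proteins Igfbp2 to Igfbp7. These genes were chosen by name as 1 family, with earlier ratios of the same 2 arrays in view, so the values below describe the family and test nothing. The 10 genes were read by 23 probe sets with a single gene symbol, of 31099 probe sets on the array and 14218 genes with a symbol. Both cultures were labelled as astrocytes of normal genotype from the hippocampus of Sprague-Dawley rat embryos at embryonic day 18. The control culture carried the vector control, which expresses IRES2-RFP, a red fluorescent protein alone. The other culture carried the construct spelled 55ppase-IRES-RFP in one label and 5ppase-IRES2-RFP in another, so the red fluorescent protein is common to both. In the series design, control stands for active calcium signalling and 5ppase for none. The promoter of the vector, the share of cells that took it up, the time between transfection and harvest and the number of embryos pooled could not be learned from the sources used here. With 1 array per group there was no replicate error and no test was possible, and precision is limited by the number of arrays.

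The ligands IGF1 and IGF2 are secreted peptides related to insulin that promote growth and survival of neural cells. They signal through the receptor tyrosine kinase IGF1R, whereas IGF2R, also known as the cation-independent mannose 6-phosphate receptor, takes up IGF2 for degradation and sorts lysosomal enzymes. The binding proteins IGFBP2 to IGFBP6 are secreted proteins that hold IGFs with high affinity outside the cell and can restrain or prolong their action, and astrocytes are a known source of them in the brain. IGFBP7 binds IGFs only weakly and is also known as a matrix and vascular protein.

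Igfbp5 was the member that stood apart. Its neighbour on chromosome 9, Igfbp2, was at nearly equal signals on both arrays, and in the RefSeq gene order no other protein-coding gene lies between them. The 250 bases before the annotated start of each gene are shown because these adjacent relatives differed so much in this contrast, 1 far apart between the arrays and the other nearly equal. They are RefSeq sequences of build GRCr8, 5′ to 3′ on the strand of the gene, with every GGAAA (the core letters bound by calcineurin-dependent NFAT factors) and every GGGCGG (a GC box) on either strand in capitals. The Igfbp5 window lies at chr9:81914188-81914437 on the minus strand and the Igfbp2 window at chr9:81864561-81864810 on the plus strand. All 10 members had an entry in the promoter table, Igf2 with more than 1 window, for 11 windows in all.
Igfbp5: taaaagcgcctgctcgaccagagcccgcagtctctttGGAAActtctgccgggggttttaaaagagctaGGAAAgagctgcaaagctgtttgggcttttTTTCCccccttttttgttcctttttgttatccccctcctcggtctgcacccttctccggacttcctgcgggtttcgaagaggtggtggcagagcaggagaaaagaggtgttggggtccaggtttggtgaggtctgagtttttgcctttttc
Igfbp2: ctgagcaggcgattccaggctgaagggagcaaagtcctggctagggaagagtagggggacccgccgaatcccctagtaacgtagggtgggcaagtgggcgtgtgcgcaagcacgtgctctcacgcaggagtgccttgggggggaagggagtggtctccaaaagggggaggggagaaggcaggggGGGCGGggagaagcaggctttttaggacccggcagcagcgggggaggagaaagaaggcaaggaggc
The Igfbp5 window held 3 matches to GGAAA and none to GGGCGG, and 51.6% of its bases were G or C. The Igfbp2 window held 1 match to GGGCGG and none to GGAAA, and 64.0% of its bases were G or C, against a median of 51.2% over the 33469 windows of the table. GGAAA occurred in 4 of the 11 member windows and in 56.9% of all windows, and GGGCGG in 5 of the 11 and in 30.5% of all. Besides that of Igfbp5, an Igf2 window held 3 matches to GGAAA, the Igf1 window 2 and the Igfbp6 window 1. Of other letters linked to calcium-regulated factors, TGACG, the short form of the CREB site, was found in 1 member window, that of Igf2r, and in 18.2% of all, and TGANTCA, the AP-1 site, in 0 member windows and in 6.34% of all. The E box, CANNTG, was searched as well and had 2 matches in the Igfbp2 window and 0 in the Igfbp5 window. It was found in 8 of the 11 member windows and in 65.5% of all. TATAAA was in neither of these 2 windows, in 1 of the 11 and in 12.9% of all. The motifs were searched on both strands and do not overlap one another in these 2 windows. A match describes letters in the window and shows no binding, and these 250 bases leave out any more distant element.

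Signals are the deposited linear intensities after scaling both arrays to a common trimmed mean, which moved no signal by more than rounding. A floor was set at 62.0, the 40th percentile of both arrays pooled. A probe set was compared where it lay above this floor on both arrays and reached 208, the 60th percentile, on at least 1. Ratios are log2 of 5ppase over control. Since each probe set has its own response, no gene's signal is ranked against that of another gene. Across 1881 genes with a second compared probe set, the spread of a log2 ratio between probe sets of 1 gene was 0.26 (SD), which covers probe noise and not differences between cultures.

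Igfbp5, which encodes a binding protein that also attaches to extracellular matrix, had 5 probe sets, and the 5ppase signal was the lower on each of them. The brightest gave a signal of 2218 in control and 530.1 in 5ppase, 4.18-fold lower (log2 ratio -2.06). The next gave 2151 and 549.7, 3.91-fold lower (log2 ratio -1.97). These log2 ratios differ from each other by less than the spread of 0.26 between probe sets and lie far outside it. A probe set of the _s_at kind, which can also read related transcripts, gave 229.7 in control and 61.5 in 5ppase, just under the floor, so that only a bound of at least 3.70-fold lower can be given. Another probe set designed from the same transcript record gave 117.2 and 12.6, too dim in control to be compared. The last gave 38.2 and 3.3, under the floor on both arrays, and no fold is given for it.

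In a bulk culture, fewer cells that express Igfbp5 and less Igfbp5 RNA per cell cannot be told apart. Among the 8261 compared genes the Igfbp5 ratio was the 9th lowest. This rank leaves out genes that were bright in control and under the floor in 5ppase, which have only a bound. Among these were Cldn11, at least 22.1-fold lower, and Aqp4, at least 6.97-fold lower. Of the 3236 compared genes with a mean signal within 2-fold of that of Igfbp5, 4 had a ratio as low or lower, Igfbp5 included. By the likeness of their ratios over the 2 arrays, the nearest genes of similar signal were the junctional adhesion molecule Jam2 (1316 and 272.5, log2 ratio -2.27, 0.21 from that of Igfbp5), the vesicle priming factor Cadps (1639 and 479.6, -1.77, 0.29 away) and the tight junction protein Ocln (1212 and 384.0, -1.66, 0.41 away). With 2 arrays this likeness compares single ratios and no pattern over samples.

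**Figure D1:**
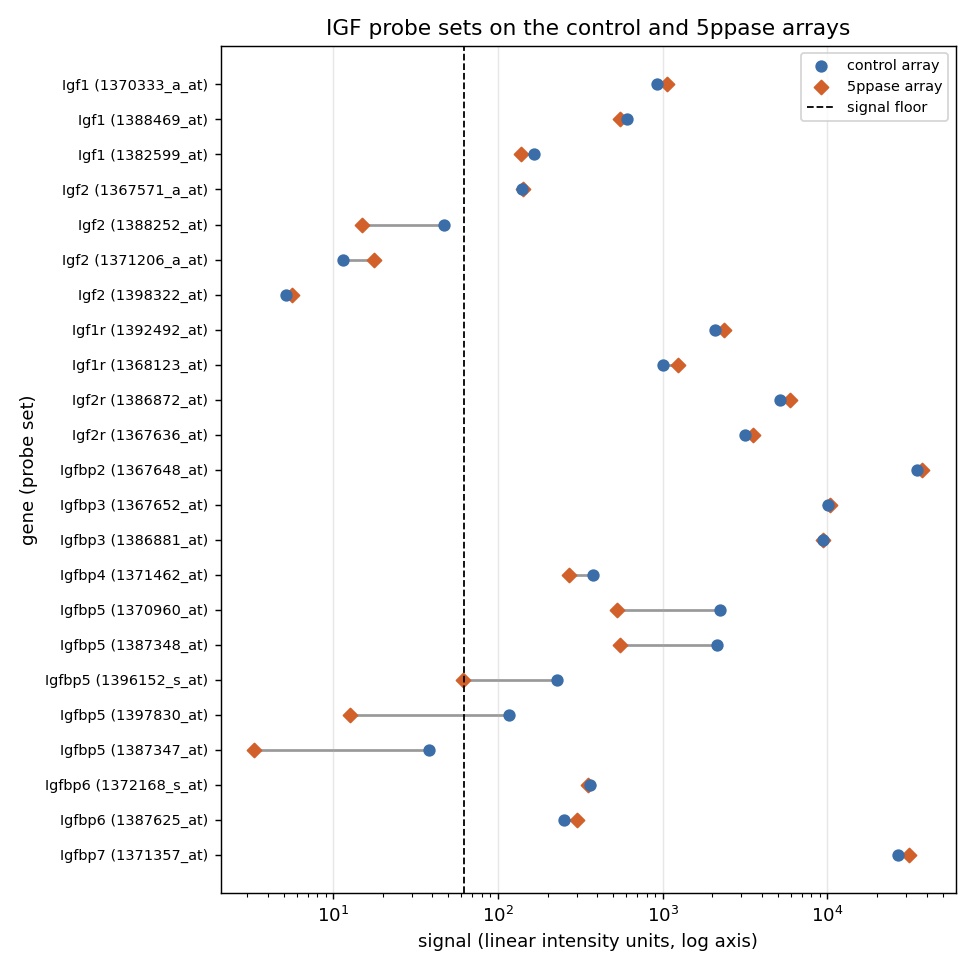
Signals of the 23 probe sets of the 10 IGF genes (vertical axis) on the control array (blue circles) and the 5ppase array (orange diamonds), on a logarithmic axis of linear intensity units, with 1 array per group and the floor of 62.0 as a dashed line. The 5 Igfbp5 probe sets were lower in 5ppase, the brightest at 2218 and 530.1, while the symbols of most other probe sets above the floor nearly coincide.

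The ligands were close to equal on both arrays where they could be read. Igf1 had 3 probe sets that disagreed in sign. The brightest gave a signal of 922.2 (control) and 1068 (5ppase), a log2 ratio of 0.21, and the second gave 609.0 and 550.2 (log2 ratio -0.15). The dimmest gave 166.5 and 138.7 and was below the signal required for comparison. The Igf1 probe sets thus differed from each other by about as much as probe sets of 1 gene do, and they give no common direction.

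Igf2 was dim on both arrays. Its brightest probe set gave a signal of 140.5 in control and 140.9 in 5ppase, above the floor but below the level required for comparison. The other 3 Igf2 probe sets, designed from 1 transcript record, gave 47.3 and 15.0, 11.5 and 17.7, and 5.2 and 5.6, all under the floor. Igf2 was the only member that was not compared. The choroid plexus, a known source of Igf2 in the brain, had none of its 6 listed markers on the array bright enough on both arrays to compare, and 4 of them, including the transthyretin gene Ttr (20.7 and 54.4), were under the floor on both. The other 2 were Folr1 (132.6 and 75.8), above the floor on both, and the water channel gene Aqp1. The brightest Aqp1 probe set (33.0 and 358.8) was above the floor in 5ppase only and at least 5.79-fold higher there. A dimmer Aqp1 probe set gave 154.2 and 192.9, above the floor on both arrays but below the signal required for comparison.

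Both receptors had slightly higher signals in 5ppase at each of their probe sets. Igf1r, the signalling receptor, gave 2079 (control) and 2348 (5ppase) at its brightest probe set (log2 ratio 0.18) and 1004 and 1241 at the second (log2 ratio 0.31). Igf2r gave 5158 and 5956 (log2 ratio 0.21) and 3163 and 3535 (log2 ratio 0.16). The sign held under the 5 scalings tried, over which the brightest probe set ranged from 0.14 to 0.18 for Igf1r and from 0.17 to 0.21 for Igf2r. These scalings differ little, since the values as deposited equalled the main ones. The median of all compared genes stayed between -0.048 and -0.004. All of the receptor changes are under 1.5-fold, and 3 of the 4 ratios are smaller than the spread between probe sets. That spread does not cover differences between cultures. With 1 array per group, neither receptor can be said to differ.

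Binding proteins other than Igfbp5 lay within 1.5-fold. Igfbp2, a binding protein that carries an integrin-binding motif, had 1 probe set, which read 35179 (control) and 37577 (5ppase), a log2 ratio of 0.10. Igfbp3, the main carrier of IGFs in serum, gave 10098 and 10332 (log2 ratio 0.03) and 9397 and 9367 at its second probe set (log2 ratio -0.0046). The sign of the Igfbp2 and Igfbp3 ratios turned negative under quantile normalization and after removal of a signal-dependent trend by loess. No direction can be given for these 2 genes.

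Igfbp4, which inhibits IGF action until it is cleaved, had 1 probe set, which read 376.9 (control) and 269.2 (5ppase), a log2 ratio of -0.49. This was the largest ratio of the family after Igfbp5, 1.40-fold lower. Of the 3420 compared genes with a mean signal within 2-fold of that of Igfbp4, 786 (23.0%) had a ratio at least as large in either direction. No second probe set was there to repeat it.

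Igfbp6, which prefers IGF2 over IGF1, gave 361.7 in control and 350.5 in 5ppase at a probe set of the _s_at kind (log2 ratio -0.05) and 251.7 and 301.4 at the other (log2 ratio 0.26), opposite in sign. Igfbp7 gave 26759 and 31300 at its 1 probe set (log2 ratio 0.23, and 0.13 to 0.23 over the scalings). Its ratio is smaller than the spread between probe sets. The remaining classical binding protein, Igfbp1, a stress and insulin regulated protein of the liver that was not among the 10 genes, lay below the floor in either culture (15.9 and 4.4).

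Of the 9 member genes compared, 1 was at least 2-fold lower in 5ppase and 0 were at least 2-fold higher. Over all 8261 compared genes, 1.42% were at least 2-fold lower and 1.5% at least 2-fold higher. Since the family was chosen with these ratios in view, nothing is read from the comparison of the 2 shares. Among the 15 member probe sets compared, 2 were at least 2-fold lower, both of Igfbp5, and 0 were higher, beside 1.45% and 1.59% of the 10647 probe sets compared that carry 1 gene symbol. The other 13 lay within 1.5-fold, from -0.49 for Igfbp4 to 0.31 for Igf1r. By genes, 8 of 9 lay within 1.5-fold, close to the 89.3% of all compared genes that did. The other 10.7% of all compared genes were at least 1.5-fold apart in either direction. The median log2 ratio was 0.10 over the 9 genes and -0.017 over all compared genes. Of the 23 member probe sets, 7 were too dim for a ratio or a bound, and 1 had a bound only.

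**Figure D2:**
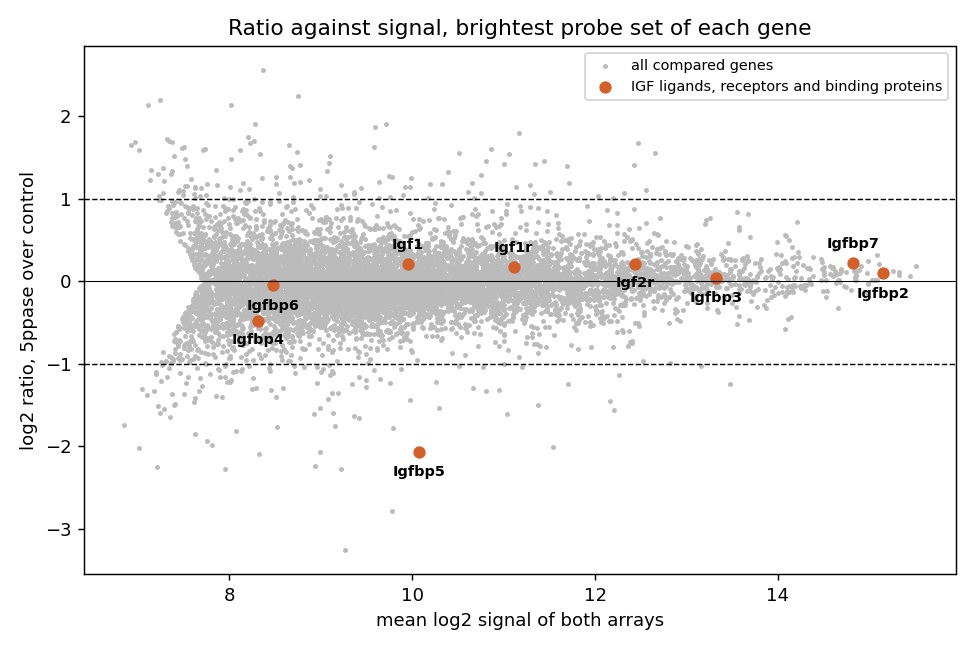
Log2 ratio of 5ppase over control (vertical axis) against the mean log2 signal of both arrays (horizontal axis) for the brightest probe set of each of the 8261 compared genes (grey points), with the 9 compared IGF genes in orange and dashed lines at 2-fold. Igfbp5 lies at -2.06, outside the 2-fold lines, and the other 8 IGF genes lie between -0.49 and 0.23.

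The genes next to the members on the chromosomes, taken from the RefSeq gene order, were read for the same contrast. Next to Igfbp2 on its other side, the ribosomal protein gene Rpl37a had a log2 ratio of 0.02. Next to Igfbp5 on its other side, Tnp1, a sperm chromatin protein, lay below the floor in either culture (1.7 and 4.7). Of the 3 genes flanking or forming this pair other than Igfbp5, Igfbp2 and Rpl37a could be compared, and both were near equal on the arrays. The other neighbours that were compared had log2 ratios of -0.07 (Mrpl23, beside Igf2), 0.37 (Spryd3, beside Igfbp6) and -0.10 (Polr2b, beside Igfbp7).

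Other genes of the IGF axis were taken from 7 lists of 86 genes in all, of which 75 were on the array under a single symbol and 45 were compared. Of the 45, 1 was at least 2-fold higher, 1 at least 2-fold lower, 26 had a positive and 19 a negative ratio. The median log2 ratio was 0.06, beside -0.017 over all 8261 compared genes. Of all compared genes, 1.5% passed the 2-fold line upward and 1.42% passed it downward. The 2 axis genes past that line therefore do not set the lists apart from the compared genes as a whole. The gene that was higher was Stc2, the secreted stanniocalcin that inhibits the protease which cleaves Igfbp4, with signals of 664.3 (control) and 1373 (5ppase) and a log2 ratio of 1.05. It was 1 of 6 compared genes among binding partners and proteases. The gene that was lower was Pik3r1, a regulatory subunit of the phosphoinositide 3-kinase that acts below IGF1R and the insulin receptor, at 1327 and 564.1 (log2 ratio -1.23). Stc2 and Pik3r1 were each read by 1 probe set.

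The other 23 of the 24 compared genes of receptor signalling were less than 2-fold apart, and the list median was 0.02. Other regulatory subunits of the kinase, named after their values were seen, had positive ratios at their brightest probe sets: Pik3r3 gave 464.4 and 732.7 (log2 ratio 0.66), and Pik3r2 gave 0.43 at its brightest probe set but -0.15 at the second. Of the insulin family only the degrading enzyme Ide was compared (1122 and 1057, log2 ratio -0.09), and Ins1 was dim (81.2 and 140.4). In the growth hormone axis the 2 compared genes were the kinase Jak2 (169.2 and 228.7, log2 ratio 0.43) and the transcription factor Stat5a (283.1 and 193.3, log2 ratio -0.55). None of the genes of the Igf2 messenger binding proteins was bright enough to compare, with Igf2bp2 at 96.8 and 76.0 and Igf2bp3 at 87.4 and 100.5.

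Genes that share the lysosomal sorting role of Igf2r were less than 2-fold apart. Of 8 genes of mannose 6-phosphate sorting, all compared, 7 had a positive and 1 a negative ratio. Their median was 0.17, beside -0.017 over all compared genes. Gga3, counted as positive, gave 0.27 at its brightest probe set (183.0 and 220.4) but -0.27 at another (214.2 and 177.8). The largest ratio was that of Nagpa (386.7 and 534.4, log2 ratio 0.47). M6pr, the cation-dependent partner of Igf2r, gave 4508 and 4442 (log2 ratio -0.02), and the sorting receptor Sort1 gave 2193 and 2480 (log2 ratio 0.18). Of the 17 imprinted growth genes, a group that includes the neighbourhood of Igf2, 4 were compared and none was 2-fold apart. Of these, Gnas, which encodes the stimulatory G protein subunit, gave 20849 and 19413 (log2 ratio -0.10) and Sgce, a sarcoglycan, gave 2367 and 2451 (log2 ratio 0.05). H19, the imprinted RNA gene that shares control elements with Igf2, was too dim to compare (107.8 and 63.6).

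**Figure D3:**
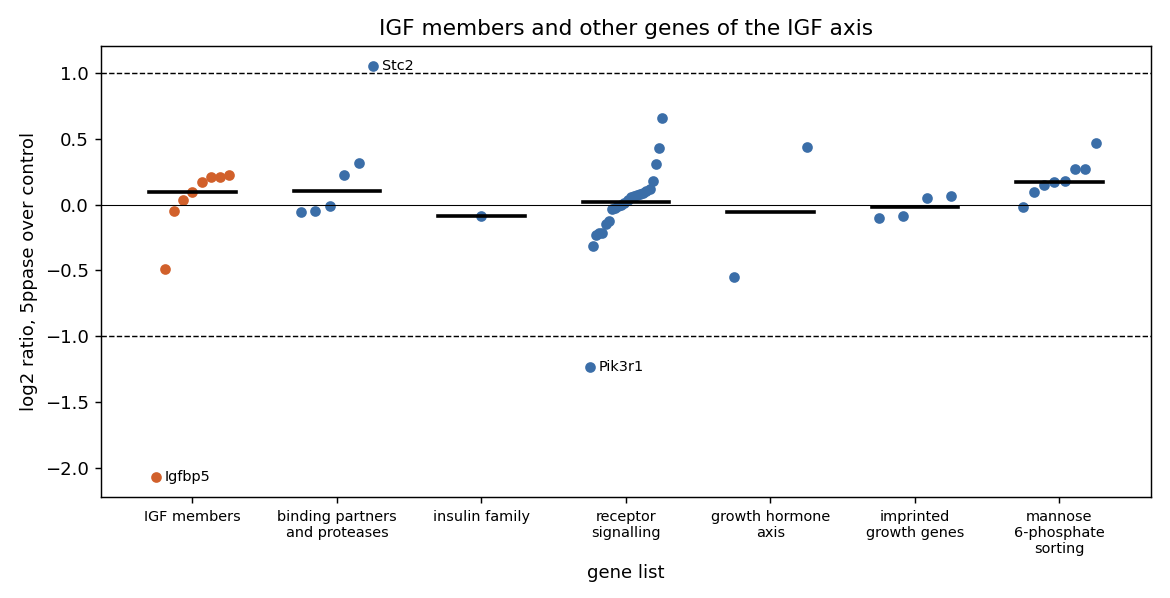
Log2 ratios of 5ppase over control (vertical axis) of the compared IGF members (orange) and of the compared genes of 6 lists of the IGF axis (blue), each point 1 gene at its brightest probe set, bars at the list medians and dashed lines at 2-fold. Igfbp5 (-2.06), Pik3r1 (-1.23) and Stc2 (1.05) lie outside the lines.

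Markers of cell type differed between the arrays in both directions. Of 21 compared markers in 7 lists, 4 were at least 2-fold lower in 5ppase, as Igfbp5 was, and 4 at least 2-fold higher, beside 1.42% and 1.5% of all compared genes. Of 11 listed astrocyte markers on the array 7 were compared, with a median log2 ratio of -0.73. The intermediate filament gene Gfap (17525 and 7408, log2 ratio -1.24) and the fatty acid binding protein gene Fabp7 (5972 and 1486, log2 ratio -2.01) were at least 2-fold lower. Glul, Aldoc and Slc1a3 had ratios of -0.73, -0.75 and -0.60 at their brightest probe sets. S100b (3483 and 3611, log2 ratio 0.05) was near equal. The gap junction gene Gja1 was near equal at its brightest probe set (7282 and 7656, log2 ratio 0.07). A dimmer Gja1 probe set was higher in 5ppase (121.1 and 249.2, log2 ratio 1.04). The water channel gene Aqp4 was above the floor in control only (432.3 and 25.1) and at least 6.97-fold lower in 5ppase. Aldh1l1 (62.9 and 49.8) and Slc1a2 (24.1 and 25.7), which also define mature astrocytes, were near or under the floor.

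Of 13 fibroblast and meningeal markers 7 were compared, of which 1 was at least 2-fold lower, Mgp (1902 and 198.7, log2 ratio -3.26), while Col1a1 gave 32792 and 32414. Of 11 neuronal markers on the array 4 were compared and did not share a direction, and 5 were under the floor on both arrays. Higher in 5ppase were Stmn2 (3766 and 11065, log2 ratio 1.55) and Tubb3 (87.9 and 290.2, log2 ratio 1.72). A second Stmn2 probe set gave 1925 and 3471 (log2 ratio 0.85), less than 2-fold apart. Lower in 5ppase were Gad1 (998.1 and 422.2, log2 ratio -1.24) and Map2 (1737 and 1210, log2 ratio -0.52). In the oligodendrocyte lineage Cspg4, the 1 marker compared, was higher (261.5 and 629.5, log2 ratio 1.27), while Cldn11 was above the floor in control only (1371 and 47.2) and at least 22.1-fold lower. The 1 microglial marker compared, Tmem119, was higher (1078 and 2273, log2 ratio 1.08), and 6 of the 10 on the array were under the floor on both arrays.

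The summed signals of the lists, in which the brightest genes outweigh the rest, were 45797 in control and 26922 in 5ppase for astrocytes, 113683 and 108362 for fibroblasts and meninges, 6816 and 13247 for neurons, 1846 and 863 for the oligodendrocyte lineage, 1385 and 1315 for endothelial and mural cells, 1321 and 2619 for microglia and 224 and 564 for choroid plexus. The sums for neurons, the oligodendrocyte lineage, microglia and choroid plexus moved mainly with the brightest probe sets of Stmn2, Cldn11, Tmem119 and Aqp1, in that order. No listed marker was at a signal of 0. The part of these markers in the Igfbp5 result was not tested.

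The Igfbp5 ratio was between -2.10 and -1.97 under each setting tried but 1. When a gene was given the mean of all its probe sets it was -1.37, since 3 of the 5 Igfbp5 probe sets are dim and are raised to the floor on 1 or both arrays. The Igf1 ratio was -0.07 under that setting and -0.15 at the second probe set, against 0.21 at the brightest. The Igfbp6 ratio was 0.26 once the _s_at probe set was left out.

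**Figure D4:**
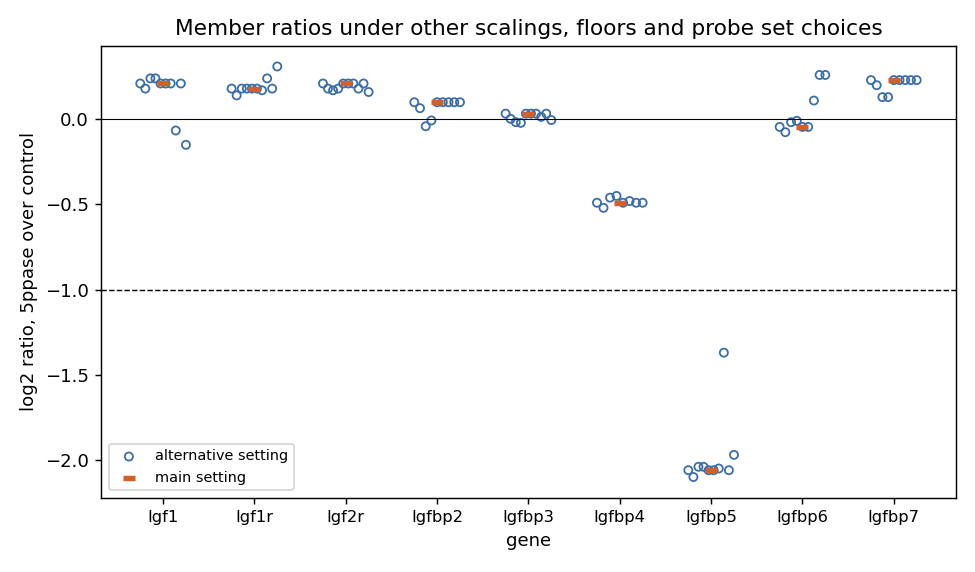
Log2 ratios of 5ppase over control (vertical axis) of the 9 compared IGF genes under the main setting (orange bars) and under the alternative scalings, floors and probe set choices that gave a value (open blue circles), with a dashed line at 2-fold lower. Igfbp5 lies below that line under each of them, from -2.10 to -1.37, while Igf1, Igfbp2, Igfbp3 and Igfbp6 have values on both sides of 0.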

How the data were processed

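Total RNA from 1 control and 1 5ppase culture was read on single-colour Affymetrix rat arrays. The deposited values are linear intensities per probe set made by the authors with MAS5, according to the submitters' processing notes, which give no version or settings here. Both arrays had a trimmed mean of 500.2 (2% removed at each end). Samples were grouped by their transfection label, and 0 sample columns were left unused. Probe sets were named through the platform table, of which 20832 had 1 gene symbol, 436 several and 9831 none listed. Of the first, 20764 matched a RefSeq entry (GRCr8).

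Both arrays were brought to 1 trimmed mean, floored at the 40th percentile and compared as log2 ratios, with the brightest probe set standing for a gene and every probe set of a member given. The members and lists were chosen with earlier results of these data known. Named were all members, genes of each pathway list at least 2-fold apart (up to 4) or else the 2 brightest, and the 3 genes nearest to the member with the largest ratio. The rule covers no cell type markers, chromosomal neighbours or other genes (such as H19, Igfbp1, Nagpa, Pik3r2 and Pik3r3), which were named after their values were seen. The procedure was tested on simulated data. Analyses used Python 3.11.15 with numpy 2.4.6, pandas 2.3.3, scipy 1.17.1 and statsmodels 0.14.6.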

Additional observations from a re-analysis of the deposited data

How the results depend on the processing

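The alternatives were no rescaling, scaling to 1 median, quantile normalization, a loess trend removed (span 0.3), a floor at the 25th percentile, a floor at the 60th with the brighter array at the 75th or above, a pseudocount of 6.4 without floor or filter, averaging of the probe sets of a gene, exclusion of _s_at and _x_at probe sets, second brightest probe sets and a threshold of 1.5-fold. Under each of them 1 member was past the threshold, Igfbp5, and no member past 2-fold changed sign. Of 85 alternative values of member ratios, 80 moved by less than 0.26 and 5 by more. Part of this was fixed by construction. Both arrays already had the same trimmed mean, so leaving out the rescaling changed no ratio. The other floors leave the ratio of a compared probe set as it is. Exclusion of _s_at and _x_at probe sets could change only the Igfbp6 ratio. The 2 axis genes became 7 of 75 with the pseudocount and 0 of the 12 with a second compared probe set. The count of genes at least 2-fold apart, 241 of 8261, became 122 of 5696 with the 60th percentile floor, 2087 of 14218 with the pseudocount and 65 of 1883 with second probe sets, and 885 were 1.5-fold apart. These settings compare other genes or use another threshold by construction. No paired analysis was possible because each group has 1 array. Dim probe sets limit what can be said of Igf2 and of 3 Igfbp5 probe sets.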
